A study of Mus musculus with 23 samples.

Results

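Mouse embryonic fibroblasts with intact p53 were compared with fibroblasts that lack p53, after both had been given the oncogene H-Ras V12 by retrovirus and an adenovirus carrying Cre recombinase. The 6 arrays were chosen by title, 3 of WT+Cre and 3 of Null+Cre, out of 23 arrays in the series, and the changes are described across autosomal genes. The titles give WT Cre cells as wild type for p53, whereas those of other cells of the series name alleles behind a removable stop cassette (LSL). The study asked how p53 mutants with defects in transactivation act in senescence induced by Ras. The 2 groups compared here are, by title, wild type and null for p53, and both had the same virus.

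The p53 protein is a transcription factor that binds DNA as a tetramer and raises the transcription of genes for cell cycle arrest, apoptosis, DNA repair and its own degradation. It lowers cell cycle genes mostly in an indirect way: the CDK inhibitor p21 keeps the pocket proteins of the RB family active, and these repress genes through E2F elements and through the CHR, a short element found at the start sites of mitotic genes. In fibroblasts, activated Ras is known to engage p53 and RB and to drive the cells into senescence, a lasting arrest.

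WT Cre replicates 1 and 2 and Null Cre replicates 2, 3 and 4 were labelled as 129/Sv, and WT Cre replicate 3 as a mix of 129/Sv and C57BL6. For WT Cre replicate 3 the genotype label names the LSL-WT allele while its title does not, and for Null Cre replicate 4 it adds the word knock-in. Whether p53 in WT Cre replicate 3 was present throughout or only after Cre is therefore not settled. The ages of the embryos and the source of the replicates, by embryo or culture, are not given in the sources used here, so the p-values given here speak only to the spread among these samples, which may be technical. Xist, the long RNA that coats the inactive X, had log2 levels of 11.60, 11.47 and 11.86 in WT Cre replicates 1 to 3 and 6.81, 6.53 and 5.72 in Null Cre replicates 2 to 4. The Y-linked Eif2s3y went the other way, with no WT Cre array above 4.001 and the lowest at 3.90, against 9.45, 9.61 and 9.60 in Null Cre. Sex and p53 therefore cannot be told apart in this comparison, and genes on X and Y were left out.

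All 11 fibroblast markers checked, among them Col1a1, Vim and Pdgfra, were measured above the low-value level of log2 4.79 in all 6 arrays. Their mean log2 level lay between 11.61 and 12.56 in WT Cre and between 12.64 and 12.88 in Null Cre. Arrays of one group correlated at 0.978 to 0.995 across the genes tested, and arrays of different groups at 0.956 to 0.978. The median probe set intensity lay between 59.67 and 63.87 in the 6 arrays. In bulk RNA, fewer cells of a type and less RNA per cell cannot be told apart.

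Many p53 target genes were higher and many cell division genes were lower in the cells with p53. Of 14766 autosomal genes tested, 1288 (8.72%) were higher and 1037 (7.02%) were lower in WT Cre, together 2325 (15.7%), at an adjusted p of 0.05 in limma. The extremes were uneven: 24 genes were at least 8-fold higher and 7 at least 8-fold lower, 80 were at least 4-fold higher and 30 at least 4-fold lower. At the 2-fold level the sides were close, with 396 higher (2.68%) and 371 lower (2.51%). The median difference over all genes was 0.015 on the log2 scale. Centring each array on its median moved the split to 1603 higher and 821 lower. The count was 1250 once Xist entered the fit as a covariate, and 1125 when only the compared arrays were fitted.

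**Figure D1:**
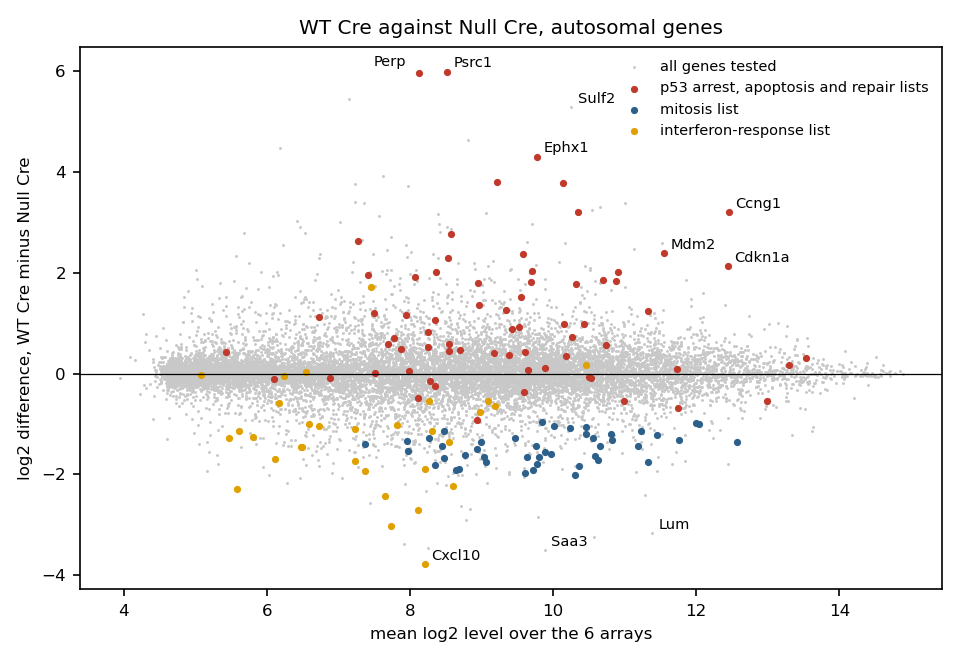
Log2 difference, WT Cre minus Null Cre, against the mean log2 level over the 6 arrays, for the 14766 genes tested, with p53, mitosis and interferon-response lists in colour. Psrc1 and Perp lie highest, at 5.99 and 5.97, Cxcl10 lies lowest, at -3.78, and all 45 mitosis genes lie below 0.

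Promoter windows are shown for 6 genes as examples of elements that are counted over the gene groups below. Each window runs from 250 bases before to 50 after a RefSeq start site, on mouse build GRCm38.p6. The first 3 are the mitosis genes with the strongest evidence of a lower level that hold a CHR, searched as TTTGAA or TTCGAA on both strands. Capitals mark the CHR and the run is 5′ to 3′ on the strand of the gene. Ncapd2, a condensin subunit, lies on the minus strand at chr6:125191537-125191836. Cenpa, the centromeric histone, lies on the plus strand at chr5:30666636-30666935. Cdc25b, a phosphatase that activates CDK1, lies on the plus strand at chr2:131186698-131186997.
Ncapd2: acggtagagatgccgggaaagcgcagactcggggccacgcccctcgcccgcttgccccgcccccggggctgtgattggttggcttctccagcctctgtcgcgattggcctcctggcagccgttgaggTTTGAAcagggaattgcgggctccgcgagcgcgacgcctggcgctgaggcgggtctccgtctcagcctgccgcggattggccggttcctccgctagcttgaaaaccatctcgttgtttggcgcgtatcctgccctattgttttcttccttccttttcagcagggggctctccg
Cenpa: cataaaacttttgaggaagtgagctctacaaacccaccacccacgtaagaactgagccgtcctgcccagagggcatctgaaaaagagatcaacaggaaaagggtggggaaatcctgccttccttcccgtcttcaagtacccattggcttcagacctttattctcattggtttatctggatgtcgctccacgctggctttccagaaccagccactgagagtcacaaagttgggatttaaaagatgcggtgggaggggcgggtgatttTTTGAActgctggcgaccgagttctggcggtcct
Cdc25b: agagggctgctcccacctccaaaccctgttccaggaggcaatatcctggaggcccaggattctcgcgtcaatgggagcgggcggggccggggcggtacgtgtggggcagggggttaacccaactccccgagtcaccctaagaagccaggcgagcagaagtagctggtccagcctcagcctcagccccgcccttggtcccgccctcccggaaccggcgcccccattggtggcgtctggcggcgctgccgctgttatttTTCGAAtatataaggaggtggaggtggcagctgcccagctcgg

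The other 3 are p53-list genes that were higher in WT Cre and hold a p53 full site, meaning 2 decamers of the consensus with at most 13 bases between them, at most 2 mismatches in all and none in the C and G of either core. Capitals mark the union of all matches in the window. Ccng1, cyclin G1, lies on the minus strand at chr11:40755237-40755536. Gtse1, a microtubule-associated protein that restrains p53, lies on the plus strand at chr15:85859696-85859995. Cdkn1a, the CDK inhibitor p21, lies on the plus strand at chr17:29090729-29091028. Gtse1 and Cdkn1a have 2 windows each, and the first that held a match is shown.
Ccng1: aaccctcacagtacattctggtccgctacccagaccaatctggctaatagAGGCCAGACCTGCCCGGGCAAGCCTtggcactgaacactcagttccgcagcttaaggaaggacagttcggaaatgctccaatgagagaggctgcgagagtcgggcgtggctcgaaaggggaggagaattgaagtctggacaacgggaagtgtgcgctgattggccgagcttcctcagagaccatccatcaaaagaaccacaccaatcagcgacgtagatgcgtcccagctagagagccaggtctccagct
Gtse1: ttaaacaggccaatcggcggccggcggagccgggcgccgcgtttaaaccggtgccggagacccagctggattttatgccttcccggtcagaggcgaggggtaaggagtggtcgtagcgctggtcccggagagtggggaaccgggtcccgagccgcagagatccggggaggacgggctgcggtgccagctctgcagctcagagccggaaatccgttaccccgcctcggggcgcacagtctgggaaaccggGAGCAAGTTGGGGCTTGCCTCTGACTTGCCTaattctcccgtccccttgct
Cdkn1a: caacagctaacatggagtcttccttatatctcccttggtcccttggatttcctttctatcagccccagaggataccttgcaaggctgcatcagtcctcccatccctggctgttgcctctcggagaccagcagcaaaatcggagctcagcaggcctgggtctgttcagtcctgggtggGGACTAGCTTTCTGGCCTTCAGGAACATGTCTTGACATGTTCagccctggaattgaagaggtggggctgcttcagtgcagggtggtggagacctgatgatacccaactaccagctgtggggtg

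In these windows the CHR ended at base 133 in Ncapd2, before the start site, and lay at bases 267 to 272 in Cenpa and 258 to 263 in Cdc25b, after it. The closest p53 match had 1 mismatch in Ccng1, 1 in Gtse1 and 0 in Cdkn1a. Of the 11797 tested genes with a window, 1938 (16.43%) held a CHR, 555 (4.70%) a p53 full site and 4955 (42.0%) the CCAAT box. An E2F core, searched as GGCGGGAA, GCGCGAAA, TTTCGCGC or TTTGGCGC on both strands, was in 666 (5.65%), and TTTCGCGC is the reverse complement of GCGCGAAA. A gene counted if any of its windows held the motif, and 2305 genes had several windows. Such matches are a description of letters, not of bound sites.

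The first group of results concerns genes of p53 arrest and feedback. Of 27 tested, 18 were higher and 1 was lower in WT Cre, with a median difference of 1.26 against 0.015 over all genes. Psrc1, a microtubule-associated protein and known p53 target, changed most. Its log2 levels were 11.54, 11.57 and 11.44 in WT Cre replicates 1, 2 and 3 and 6.08, 5.51 and 4.99 in Null Cre replicates 2, 3 and 4, the order used for every gene here. The WT Cre arrays lay close together and far above all Null Cre arrays. The difference was 5.99 ± 0.27 (SE), or 63.6-fold, with an adjusted p of 2.14e-11 in limma.

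Ccng1 had the smallest adjusted p of the genes named here, 4.93e-12 in limma. It read 14.03, 14.06 and 14.08 with p53 and 10.95, 10.73 and 10.89 without, a difference of 3.20 ± 0.13 or 9.19-fold. Both groups were tight and did not overlap. Cdkn1a was abundant in both groups, at 13.34, 13.89 and 13.33 against 11.75, 11.20 and 11.19. All WT Cre arrays lay above all Null Cre arrays, by 2.14 ± 0.27 on average, or 4.41-fold (limma adjusted p 2.91e-05). Mdm2, the ubiquitin ligase that degrades p53, read 12.60, 12.95 and 12.68 against 10.38, 10.42 and 10.27. It was 5.23-fold higher, 2.39 ± 0.15 on the log2 scale, again with no overlap (limma adjusted p 2.01e-09).

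Trp53inp1, a stress protein that helps p53 in apoptosis and autophagy, read 11.97, 12.12 and 12.02 with p53 and 8.73, 8.36 and 7.66 without. The Null Cre arrays were more spread than the WT Cre arrays, and the groups stood 3.79 ± 0.24 apart, or 13.8-fold (limma adjusted p 3.86e-09). The 2 probe sets of Trp53inp1 lay at 1.88 and 3.79. Smaller rises in the list included Zmat3, an RNA-binding zinc finger protein, by 2.38 ± 0.16, Btg2, an antiproliferative factor, by 2.03 ± 0.35, Rprm, a mediator of G2 arrest, by 1.96 ± 0.29, and Sesn2, a sestrin that restrains mTORC1, by 1.26 ± 0.22. Ptprv, a phosphatase, rose by 2.63 ± 0.44 and Gtse1 by 1.53 ± 0.18. Ppm1d, the phosphatase Wip1 that dampens the p53 response, was higher by 0.58 ± 0.17 with a limma adjusted p of 0.0261. That call was lost without WT Cre replicate 1 or 3 or Null Cre replicate 2 or 3, with differences of 0.44 to 0.58 and adjusted p of 0.0723 to 0.126 in limma.

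The one member that was lower was Cdkn2d, a CDK4 and CDK6 inhibitor, at 8.65, 8.28 and 8.51 against 9.74, 9.39 and 9.09. Its arrays did not overlap, and the difference was -0.92 ± 0.15 (limma adjusted p 0.00035). Several well-known members did not pass the test. Gadd45a, a stress gene of growth arrest, read 9.78, 9.63 and 9.67 against 9.73, 9.85 and 9.26, with overlapping groups and a limma adjusted p of 0.868. Ccng2, Gadd45b, Cop1, Ccnd1, Plk3, Sfn and Sesn1 did not pass the test either, with differences from -0.25 to 0.43.

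**Figure D2:**
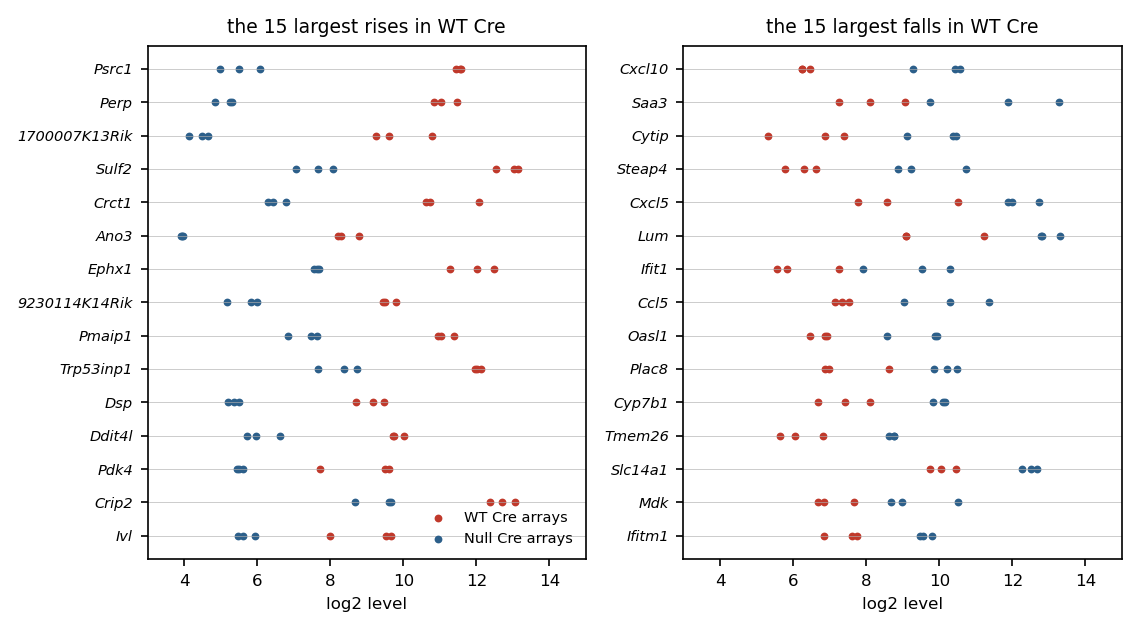
Log2 levels in each of the 3 WT Cre arrays (red) and 3 Null Cre arrays (blue) for the 15 genes that were highest and the 15 that were lowest in WT Cre relative to Null Cre. The groups do not overlap for any of the 30 genes, as the choice of genes required.

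Genes of apoptosis came next. Of 22 tested, 13 were higher and 0 were lower, with a median difference of 1.03. Perp, a membrane protein of desmosomes that also takes part in p53-driven death, read 11.47, 11.02 and 10.84 against 4.84, 5.32 and 5.27. The Null Cre values lie near the low-value level of 4.79, so the 62.7-fold difference (5.97 ± 0.43, limma adjusted p 1.77e-08) rests on a low base. Pmaip1, the BH3-only protein Noxa, read 10.96, 11.38 and 11.04 against 7.62, 7.48 and 6.85. It was higher by 3.81 ± 0.47, with well separated groups (limma adjusted p 2.33e-05).

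Phlda3, which restrains AKT at the membrane, read 12.05, 12.17 and 11.64 against 8.84, 8.84 and 8.56, a 9.22-fold difference (3.21 ± 0.23, limma adjusted p 1.75e-08). No array of one group reached the other. Further members that rose were the nuclease Aen by 1.86 ± 0.17, the kinase Dapk1 by 1.80 ± 0.28, the endoplasmic reticulum protein Ei24 by 1.77 ± 0.16, the death-domain protein Siva1 by 1.23 ± 0.24 and the TRAIL receptor Tnfrsf10b by 1.20 ± 0.23. The BH3-only protein Bid rose by 0.88 ± 0.17 and the inhibitor of apoptosis Bcl2l1, coding for BCL-XL, by 0.57 ± 0.12. The death receptor Fas was higher by 1.12 ± 0.27 (limma adjusted p 0.00638). Without WT Cre replicate 1 its difference was 0.86, with an adjusted p of 0.0502.

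Other death genes did not pass. Bbc3, the BH3-only protein Puma, read 8.62, 8.77 and 8.18 against 8.27, 7.72 and 7.96, with overlapping groups (0.54 ± 0.22, limma adjusted p 0.121). Apaf1, the core of the apoptosome, read 9.60, 9.85 and 10.01 against 9.33, 9.52 and 9.35. Its groups did not overlap, yet the difference of 0.42 ± 0.16 had a limma adjusted p of 0.0788. Bcl2l11, Casp6, Tnfaip8, Tnfrsf1b, Trp53i13, Steap3 and Zfp385a were not called either, with differences from -0.54 to 1.36.

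Repair and redox genes formed the third p53 list. Of 20 tested, 7 were higher and 1 was lower, with a median of 0.46. Ephx1, the epoxide hydrolase of xenobiotic metabolism, read 12.48, 11.28 and 12.03 against 7.54, 7.63 and 7.69, a 19.8-fold difference with no overlap (4.31 ± 0.29, limma adjusted p 5.67e-09). Ercc5, a nuclease of nucleotide excision repair, read 9.57, 9.26 and 9.31 against 7.37, 7.19 and 7.52. It was 4.05-fold higher, and again no array crossed over (2.02 ± 0.15, limma adjusted p 1.75e-08). Hmox1, a haem oxygenase, rose by 2.02 ± 0.34, the alkyltransferase Mgmt by 1.92 ± 0.20, the translesion polymerase Polk by 1.83 ± 0.25 and the damage sensor Xpc by 0.70 ± 0.15. Trp53i11 was higher by 0.82 ± 0.25 (limma adjusted p 0.0321), a call lost without WT Cre replicate 2 (0.50) or Null Cre replicate 3 or 4 (both 0.74).

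Sod2, the mitochondrial superoxide dismutase, was the member that fell, at 11.49, 11.51 and 11.23 against 12.55, 11.74 and 11.98 (-0.68 ± 0.15, limma adjusted p 0.00376), with no overlap. Its 4 probe sets lay at -0.76 to -0.09. Ddb2, the damage sensor of nucleotide excision repair, read 6.42, 6.01 and 5.72 against 6.76, 6.02 and 5.65, with overlapping groups and a limma adjusted p of 0.87. Rrm2b, a ribonucleotide reductase subunit, had an adjusted p of 0.0507 at 0.47 ± 0.16, just outside the threshold in limma. Aldh4a1, Cat, Fancc, Gpx1, Nqo1, Pcna, Pold4, Polh, Sesn3 and Tigar were not called, with differences from -0.54 to 1.07.

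Of 22 genes of p53-linked autophagy and metabolism, 8 were higher and 4 lower, with a median of 0.51. Cpt1c, a carnitine palmitoyltransferase, rose by 1.78 ± 0.22 and the lysosomal protease Ctsd by 1.37 ± 0.21. Dram1, an autophagy gene of the lysosome, was lower, at 8.24, 7.84 and 8.40 against 10.32, 9.02 and 9.35 (-1.40 ± 0.24, limma adjusted p 0.000508), with no overlap. Slc7a11, the cystine transporter that p53 is known to repress, fell by 1.15 ± 0.28 on the log2 scale. The number higher was 5 without Null Cre replicate 3, Null Cre replicate 4 or WT Cre replicate 1.

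A broader list of p53 targets had 22 of 36 tested genes higher and 0 lower, with a median of 1.19. Sulf2, a sulfatase that edits heparan sulfate at the cell surface, read 13.02, 12.53 and 13.15 against 7.07, 7.68 and 8.08, a 39.2-fold difference with no overlap (5.29 ± 0.27, limma adjusted p 1.47e-10). Its 3 probe sets did not all move alike, with differences from -0.20 to 5.54. Crip2, a LIM-domain protein, was 10.5-fold higher (3.39 ± 0.26) and Arap2, a GTPase-activating protein, 5.35-fold higher (2.42 ± 0.16). Rb1, the retinoblastoma protein, read 9.83, 9.64 and 9.67 against 8.03, 7.99 and 8.20, 3.11-fold higher with tight groups (1.64 ± 0.19, limma adjusted p 8.61e-06). At an unadjusted p of 0.05 in limma, 0 of this list and 1 of the apoptosis list were lower. Of the arrest, apoptosis and repair lists 38 genes were higher, and 28 of them had a promoter window. Only 3 of these (10.71%) held a p53 full site, Ccng1, Gtse1 and Cdkn1a, whose windows are shown above.

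Several of the largest rises were in genes outside the p53 lists. 1700007K13Rik read 10.80, 9.60 and 9.25 against 4.12, 4.67 and 4.49, and Ano3, a membrane protein of the anoctamin family, read 8.79, 8.20 and 8.29 against 3.98, 3.91 and 3.95. For both, all Null Cre arrays lay below the low-value level, so the size of the differences (5.46 ± 0.37 and 4.48 ± 0.29) has no sure base. Pdk4, a kinase that inhibits pyruvate dehydrogenase, rose by 3.41 ± 0.46, and Ddit4l, an inhibitor of mTORC1 signalling, by 3.73 ± 0.22.

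Genes of the cornified envelope, the protein shell of skin cells, stood among the largest rises. Crct1 read 10.72, 12.06 and 10.62 against 6.79, 6.42 and 6.29, and Ivl, involucrin, read 9.52, 9.65 and 8.01 against 5.94, 5.47 and 5.60. Neither gene's groups overlapped, with differences of 4.63 ± 0.43 and 3.39 ± 0.38 (limma adjusted p 5.68e-07 and 6.47e-06). After these values were seen, the Lce and Sprr families of the same envelope were examined as well. Of 38 members 16 could be tested, and of these 7 were higher and 0 lower, with a median of 0.33. Among the 16, Lce1d and Lce1f had no probe set with a mean over all arrays above the low-value level. Lce1h reached 12.44, 12.50 and 11.56 against 8.63, 8.60 and 9.53, and Sprr1a 10.56, 11.67 and 10.26 against 9.15, 9.28 and 8.41. The desmosomal Dsp, desmoplakin, was 13.6-fold higher (3.76 ± 0.51, limma adjusted p 5.80e-05). It read 9.47, 9.18 and 8.70 against 5.19, 5.51 and 5.37, so its fold rests on a low base. Members of the Lce and Sprr families are near-identical in sequence in places, so probe sets may not separate them.

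Epithelial markers were measured beside them. Of 11 tested, 4 were higher and 0 lower, with a median of 0.52. They were Dsp, Krt18, Cldn4 and Krt19. The mean log2 level of the list lay between 7.27 and 7.57 in WT Cre and between 6.30 and 6.73 in Null Cre. Epcam, a defining marker, read 7.51, 7.33 and 7.56 against 7.24, 7.51 and 7.40, and Cdh1, E-cadherin, 5.61, 7.19 and 6.65 against 5.07, 5.68 and 5.22. Both overlapped between the groups, and Esrp1 lay below the low-value level in all 6 arrays. Krt19 lost its call without Null Cre replicate 2 (1.17) or WT Cre replicate 1 (1.52). The part of epithelial cells in the rise of the envelope genes was not tested.

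Mitosis genes made up a large group of lower genes. Of 45 mitosis genes tested, 39 were lower and 0 higher, and the median difference was -1.43. In all 45 the 3 WT Cre arrays lay below the 3 Null Cre arrays, whereas 12.4% of all genes did so. Ncapd2 read 8.97, 8.32 and 9.02 against 10.78, 10.51 and 10.75. Its groups were far apart, by -1.91 ± 0.30, a 3.76-fold lower level (limma adjusted p 0.000263). The other probe set of Ncapd2 differed by -0.42. Cenpa read 9.83, 8.72 and 9.79 against 11.26, 11.38 and 11.21, and WT Cre replicate 2 lay well below the other two WT Cre arrays. Its level was 3.57-fold lower (-1.83 ± 0.30, limma adjusted p 0.000342), while its other probe set above the low-value level differed by 0.016. Cdc25b fell by 1.53 ± 0.26 on the log2 scale and the condensin subunit Smc4 by 1.43 ± 0.25.

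The mean level of the mitosis list was 9.47, 8.46 and 9.50 in WT Cre and 10.42, 10.63 and 10.78 in Null Cre, so the groups were apart in every array. WT Cre replicate 2 was the lowest of all 6 arrays. The number called was 18 without WT Cre replicate 2 and 21 without Null Cre replicate 4. With Xist as a covariate it was 11.

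**Figure D3:**
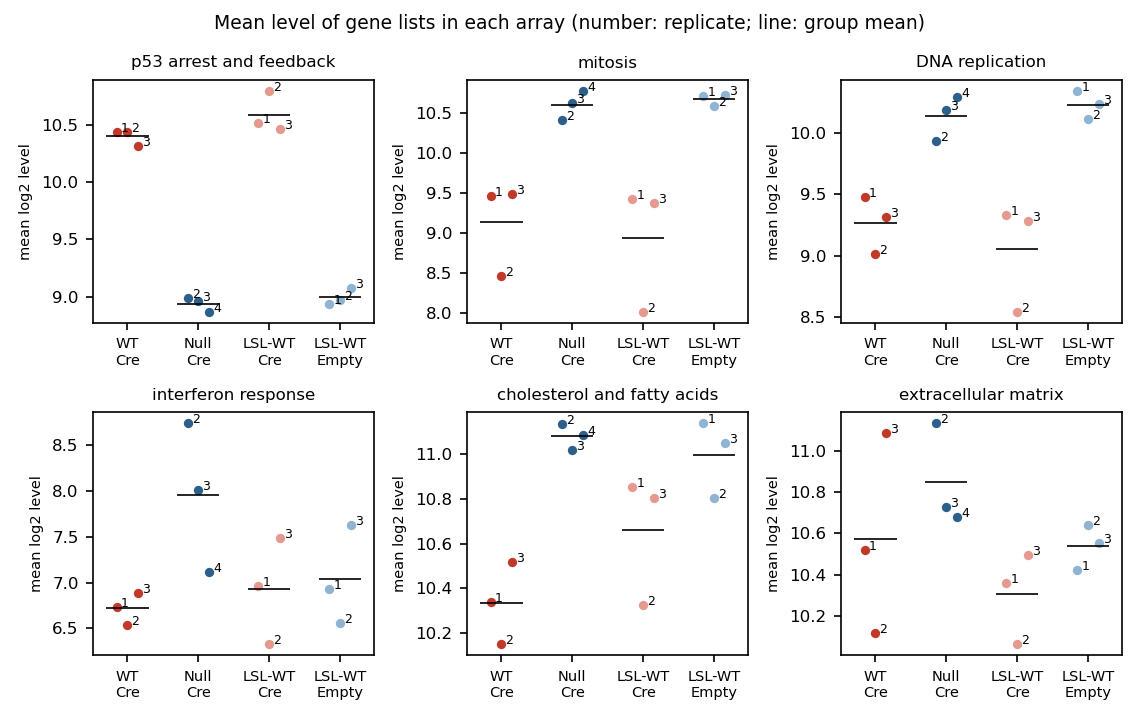
Mean log2 level of the tested genes of 6 lists in each array, with the replicate number beside each point and a line at the group mean. WT Cre lies below Null Cre in every array for mitosis, DNA replication, interferon response and cholesterol and fatty acids, and the extracellular matrix list overlaps, with WT Cre at 10.52, 10.11 and 11.09.

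Of 46 DNA replication genes, 26 were lower and 0 higher, with a median of -0.79. Rfc4, a clamp loader subunit, read 8.74, 7.85 and 8.76 against 9.75, 9.99 and 10.02 (-1.47 ± 0.27, limma adjusted p 0.000935), with WT Cre replicate 2 again lowest and no overlap. The kinase Cdc7, which fires origins, fell by 1.43 ± 0.25, the ligase Lig1 by 1.41 ± 0.25 and Uhrf1, which maintains DNA methylation, by 1.38 ± 0.19. The number called was 15 without WT Cre replicate 2. Homologous recombination and Fanconi genes had 14 of 19 lower and 0 higher, with a median of -1.09. Rad54l fell by 1.65 ± 0.27, the helicase Blm by 1.45 ± 0.25 and Brca1 by 1.23 ± 0.23. Probe sets above the low-value level lay at -1.65 to -0.30 for Rad54l and -1.233 to -0.005 for Brca1. The count of lower recombination and Fanconi genes was 9 without WT Cre replicate 2 and 9 without Null Cre replicate 4. Of 15 genes of histones and chromatin 12 were lower and 0 higher, among them Lbr, a receptor of the nuclear envelope, by -1.49 ± 0.24, and Ezh2, the methyltransferase of histone H3, by -0.74 ± 0.14. That count was 7 without WT Cre replicate 2. At an unadjusted p of 0.05 in limma, 0 mitosis, 1 replication, 0 recombination and 1 chromatin genes were higher.

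Among 16 genes of CDK inhibitors and the RB family 2 were higher and 5 lower, with Rb1 and Ccnd2 on the upper side. Cdkn2c, an inhibitor of CDK4 and CDK6, was lower (8.59, 8.38 and 8.72 against 9.80, 9.43 and 9.46) with no overlap and a limma adjusted p of 0.0034, and Cdk6 fell by 0.88 ± 0.13 on the log2 scale, with its 3 probe sets at -0.93 to 0.09. The number lower was 3 without WT Cre replicate 1, WT Cre replicate 2, Null Cre replicate 2 or Null Cre replicate 3.

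Promoter letters were then counted in the same groups. Of the 39 mitosis genes that were lower, 31 had a window, and 24 of these (77.42%) held a CHR and 24 (77.42%) a CCAAT box, against 16.43% and 42.0% of all genes tested. Of the 21 lower replication genes with a window, 11 (52.38%) held an E2F core, against 5.65% of all genes. All genes lower in WT Cre had a CHR in 26.34%, and genes at least 2-fold lower in 36.07%. A p53 full site was in 6.97% of the genes higher in WT Cre and 4.41% of those lower, and in 9.39% of those at least 2-fold higher and 5.36% of those at least 2-fold lower. Of the lower genes with a window it was in 2 of 21 replication genes (9.52%) and 3 of 9 interferon genes (33.33%). These shares are a description, with no test.

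**Figure D4:**
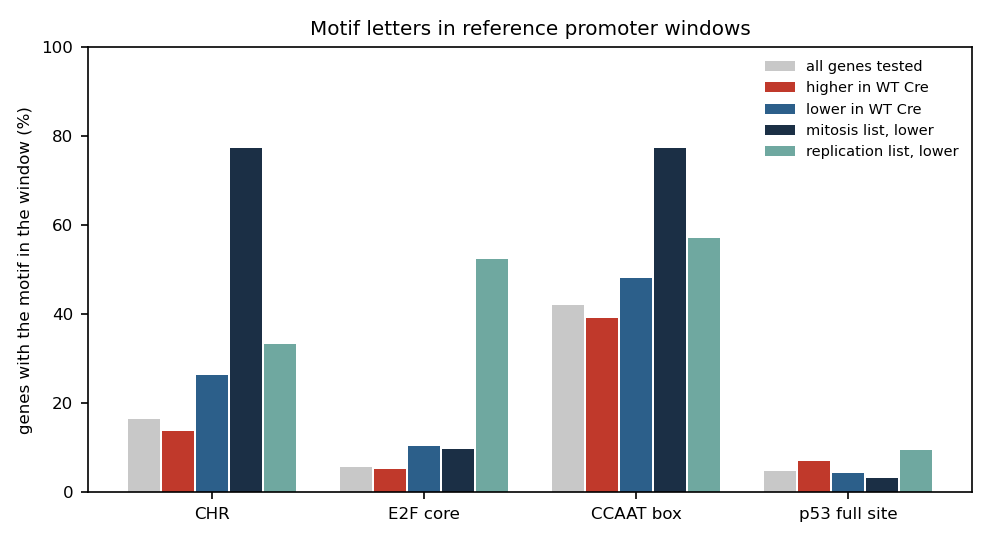
Percentage of genes with each motif in any promoter window, 250 bases before to 50 after a RefSeq start site, for all tested genes with a window and for 4 subsets. The CHR is in 77.42% of the lower mitosis genes and the E2F core in 52.38% of the lower replication genes, against 16.43% and 5.65% of all genes.

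Some interferon-response genes were lower in the cells with p53. Of 31 tested, 13 were lower, 1 was higher and 17 did not pass, with a median of -1.14. Cxcl10, a chemokine that interferon induces, had the lowest difference of all genes. It read 6.24, 6.26 and 6.46 against 10.44, 10.58 and 9.29. The WT Cre arrays were alike and all Null Cre arrays far above them, 13.8-fold (-3.78 ± 0.56, limma adjusted p 0.000121). Oasl1, an antiviral protein, read 6.47, 6.92 and 6.87 against 9.89, 9.93 and 8.57 (-2.71 ± 0.48, limma adjusted p 0.000634), and Null Cre replicate 4 was the lowest of its group in both genes. Ifit1, an antiviral RNA-binding protein, read 5.83, 5.56 and 7.27 against 10.28, 9.54 and 7.91 (-3.03 ± 0.76, limma adjusted p 0.00991). Without Null Cre replicate 2 the difference was -2.51 with an adjusted p of 0.0547.

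The member that was higher was Tap1, a peptide transporter that is also a p53 target, at 8.80, 8.49 and 7.64 against 7.50, 6.29 and 5.99 (1.72 ± 0.41, limma adjusted p 0.00722). Its groups did not overlap, and its 2 probe sets above the low-value level lay at 0.24 and 1.72. The mean of the interferon list was 6.74, 6.54 and 6.88 in WT Cre and 8.74, 8.01 and 7.11 in Null Cre. Null Cre replicate 4 lay close to WT Cre replicate 3, and Null Cre replicate 2 stood highest. The number lower was 5 without Null Cre replicate 2, 21 without Null Cre replicate 4 and 8 without WT Cre replicate 2. It was 23 with the strain label as a covariate, 5 with Xist and 7 when only the compared arrays were fitted. With the replicate block it was 25, where 1906 of all 14766 genes were lower.

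Inflammatory genes were mixed. Of 17 chemokines, 4 were lower and 0 higher, and of 20 genes of the acute phase, 5 were lower and 2 higher, with medians of -0.21 and -0.29. Saa3, a serum amyloid, read 8.11, 9.05 and 7.25 against 13.28, 9.75 and 11.87. Null Cre varied widely, yet its lowest array lay above all WT Cre arrays (-3.50 ± 0.78, 11.3-fold, limma adjusted p 0.00404). Ccl5, a chemokine for T cells, read 7.14, 7.54 and 7.33 against 11.37, 10.30 and 9.03, 7.43-fold lower in WT Cre with no overlap (-2.89 ± 0.56, limma adjusted p 0.00147). Cxcl5, a neutrophil chemokine, differed by -3.25 ± 0.98 (limma adjusted p 0.0291), and that call was lost without any one of Null Cre replicates 2, 3 and 4 and WT Cre replicates 1 and 2, with differences of -2.66 to -3.40. On the other side Il1rn, the antagonist of the interleukin-1 receptor, rose by 2.01 ± 0.29 and the macrophage growth factor Csf1 by 0.84 ± 0.15. The chemokine count was 2 without each of those same 5 arrays.

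Most cholesterol and fatty acid genes tested were lower in the cells with p53. Of 26 tested, 19 were lower and 0 higher, with a median of -0.75, and all 26 differences were below 0, with 0 higher at an unadjusted p of 0.05 in limma. Hmgcs1, an early enzyme of the mevalonate pathway, read 11.71, 11.40 and 12.21 against 12.87, 12.81 and 12.99 (-1.12 ± 0.21, limma adjusted p 0.00105). WT Cre replicate 3 was the highest of its group, and the groups did not overlap. Elovl6, a fatty acid elongase, fell by 1.35 ± 0.20 on the log2 scale, Stard4, a sterol carrier, by 1.13 ± 0.19 and the desaturase Scd2 by 0.67 ± 0.08. The number lower was 11 with Xist as a covariate and 12 when only the compared arrays were fitted.

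Of 22 lysosomal genes tested, 8 were higher, 0 lower and 14 did not pass, with a median of 0.40. The protease Ctsh read 10.25, 9.83 and 10.38 against 8.26, 7.89 and 7.92, 4.38-fold higher with no overlap (2.13 ± 0.23, limma adjusted p 4.40e-06). The count was 4 without Null Cre replicate 4 or WT Cre replicate 1 and 5 without Null Cre replicate 3. Of 24 genes of the unfolded protein and amino acid responses, 3 were higher and 9 lower, among them Cth, an enzyme of cysteine synthesis, by -1.43 ± 0.28, and the serine pathway enzyme Shmt2, by -0.86 ± 0.17. The number lower was 5 without WT Cre replicate 1.

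Matrix and fibroblast genes were also measured. Of 37 matrix genes, 7 were lower and 2 higher, with a median of -0.30. Lum, the proteoglycan lumican, read 9.09, 9.10 and 11.23 against 13.29, 12.78 and 12.82. WT Cre replicate 3, the array of mixed strain, lay between the other two WT Cre arrays and Null Cre (-3.16 ± 0.63, 8.93-fold, limma adjusted p 0.00184). Dcn, decorin, read 11.50, 11.56 and 11.58 against 13.90, 13.05 and 13.10, and Fbln1, fibulin, 9.04, 9.26 and 9.23 against 11.68, 10.88 and 10.65. Neither overlapped, and they fell by 1.80 ± 0.25 and 1.89 ± 0.30 on the log2 scale. The 2 probe sets of Dcn lay at -1.80 to -0.76 and the 3 of Fbln1 at -1.895 to -0.005. The number lower was 3 without WT Cre replicate 1 and 4 without WT Cre replicate 2, Null Cre replicate 2 or Null Cre replicate 3. The number higher was 0 without WT Cre replicate 3 and 1 without any one of the Null Cre replicates.

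Mgp, an inhibitor of calcification, was higher, at 12.70, 11.42 and 14.33 against 9.73, 10.74 and 10.20 (2.59 ± 0.71, limma adjusted p 0.0171). WT Cre replicate 3 was again the highest array, and the call was lost without it (1.84) or without Null Cre replicate 2 (2.35). Of 11 fibroblast markers 4 were lower and 0 higher, with a median of -0.66. They were Col3a1, Pdgfra, Pdgfrb and Prrx1. The count was 7 without WT Cre replicate 3, 2 without Null Cre replicate 2 and 1 without WT Cre replicate 1 or 2. The part of a change in cell makeup in the matrix values was not tested.

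The series holds a second comparison of cells with and without wild-type p53, in which Cre opened a stop cassette before p53 (LSL-WT Cre) or an empty virus left it closed (LSL-WT Empty), with 3 arrays each, none of them shared with the first. In it Xist was high in replicate 2 of both groups and low in replicates 1 and 3, so that sex was balanced between the groups. Replicates 1 and 3 of both groups were labelled as a mix of 129/Sv and C57BL6, and replicate 2 as 129/Sv. Strain was thus balanced as well, but within these arrays it cannot be told apart from sex. Most WT Cre and Null Cre arrays were labelled 129/Sv, so the 2 comparisons differ in strain. The test called 724 genes higher (4.90%) and 1008 lower (6.83%), together 1732 (11.7%). With the replicate number as a block the count was 3937, and without LSL-WT Cre replicate 2 it was 967. Across the 14766 genes the differences of the 2 comparisons correlated at 0.756, a description over genes, which are not independent replicates, from arrays normalised together.

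Of the genes higher in WT Cre, 519 were also higher in LSL-WT Cre, which is 40.3% of the first list and 71.69% of the second. For the lower genes 531 were shared, 51.21% and 52.68% of the lists. Only 3 genes were called in opposite directions. These shared counts use the fit without the replicate block. With the block 1678 genes were higher and 2259 lower in LSL-WT Cre, and the overlap was not counted there. Psrc1, Perp, Ccng1, Cdkn1a and Mdm2 had differences of 5.46, 4.53, 3.39, 2.92 and 2.94 in the second comparison, beside 5.99, 5.97, 3.20, 2.14 and 2.39 in the first. The mitosis list had 45 of 45 genes lower in the second, with a median of -1.77, and the replication list 36 of 46, with a median of -1.13.

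**Figure D5:**
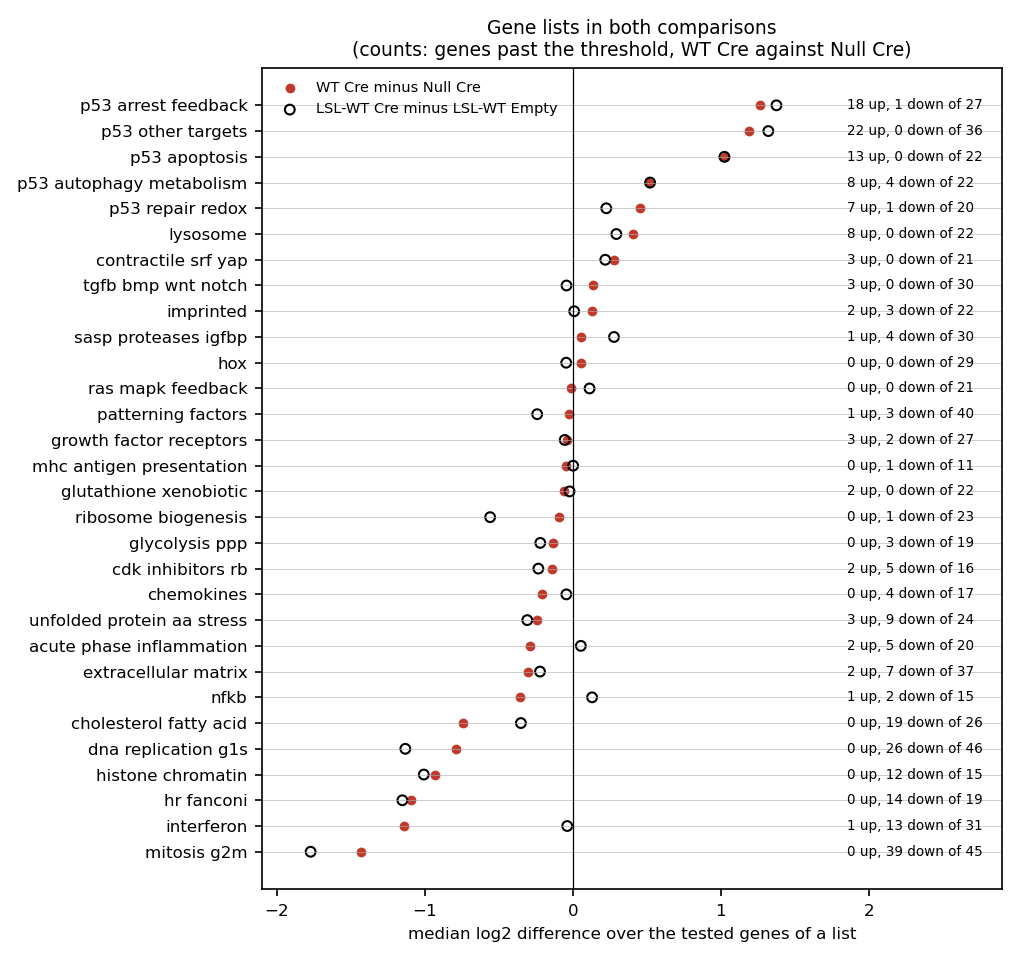
Median log2 difference over the tested genes of each list in WT Cre minus Null Cre (red) and LSL-WT Cre minus LSL-WT Empty (open circles), with the number of genes past the threshold in the first comparison at the right. The p53 arrest list lies at 1.26 and 1.38, DNA replication at -0.79 and -1.13, cholesterol and fatty acids at -0.75 and -0.35 and interferon response at -1.14 and -0.04.

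Other lists are given side by side, with no test between them. With the replicate block, 1678 of all 14766 genes were higher and 2259 lower in LSL-WT Cre. Interferon genes had 2 higher and 1 lower of 31 in LSL-WT cells, with a median of -0.04, and 2 higher and 2 lower with the replicate block. Cholesterol and fatty acid genes had 2 of 26 lower, with a median of -0.35, and 12 lower with the block. Ribosome biogenesis genes had 13 of 23 lower, with a median of -0.56, and 20 with the block. In WT Cre 1 of 23 was lower, with a median of -0.10, and 3 with the block. Lysosomal genes had 4 of 22 higher, and 11 with the block.

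The test of the difference between the comparisons passed 12 genes (0.0813%), with 1150 at an unadjusted p of 0.05. None of the interferon, cholesterol, mitosis or replication genes was among them. With the replicate block it passed 234 genes, of which 1 was an interferon gene, 2 cholesterol or fatty acid genes, 3 ribosome biogenesis genes, 3 replication genes and 0 mitosis genes. That block gave same-numbered arrays of all 7 subgroups a shared term, WT Cre and Null Cre among them. The count of 234 is thus not a test with the LSL-WT pairing alone. A list's position in one comparison is therefore not shown to be particular to it. Among the 12 were Cldn1, a claudin of tight junctions, at 8.32, 8.34 and 6.97 against 5.60, 5.81 and 5.32 (2.30 ± 0.29), beside -0.14 in LSL-WT cells, and Lrp11, a receptor-related protein, at 9.56, 9.06 and 8.999 against 7.14, 7.45 and 7.37 (1.89 ± 0.18), beside 0.17. In neither gene did the WT Cre and Null Cre arrays overlap.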

How the data were processed

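RNA of 23 mouse embryonic fibroblast samples was measured on Affymetrix oligonucleotide arrays, of which 6 form this comparison. The deposited table gives, for every probe set, an intensity on a linear scale made with RMA, per the submitters' processing notes, and the version of RMA is not given in the sources used here. The table has no detection calls, so low values are not known to be absent transcripts. Values were taken to log2. Of 45101 probe sets 64 controls were left out, 34945 carried 1 gene, 932 carried several and 9160 had no entry in the annotation used. For each of 18161 genes the probe set of highest mean was used. The 628 genes on X or Y and 7 unplaced genes were left out, which left 17526, and the 14766 with at least 3 arrays over the 30th percentile (log2 4.79) were tested. Transcripts of the p53 gene itself and of the Ras transgene are not analysed here.

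A means model of 7 subgroups was fitted to all 23 arrays with limma 3.58.1 in R 4.3.3, whose moderated test is two-sided, and p-values were adjusted over all genes tested by Benjamini-Hochberg, with a threshold of 0.05. The number of arrays, 3 per group, limits the precision. When the script was tested on simulated data, the comparison recovered 77% of genes changed by 1 on the log2 scale and 23% of genes changed by 0.5, and 6 of 106 calls fell on unchanged genes. Only 100 genes were changed at each size, with noise independent between arrays. In the real comparison 2325 genes were called, so these rates need not hold for it. The comparison and its lists were chosen with earlier results of these data known. The rule for named genes took the 15 largest rises and falls without overlap, up to 4 called members per list and direction with the largest statistic, every tested gene of the p53 arrest, apoptosis and repair lists, and up to 6 genes with the smallest p for the difference between comparisons. Lists are described by counts and medians, with no test of a list. LSL-WT Cre and LSL-WT Empty share replicate numbers, and same-numbered arrays deviated together, with correlations of 0.735, 0.800 and 0.716, so the labels' numbers pair these samples. The results given first come from the fit without this pairing. For LSL-WT cells, counts of called genes with the replicate number as a block stand beside them where they differ by over 1.5 times. The block was fitted over all 23 arrays. For WT Cre and Null Cre, whose numbers were not taken to pair, list counts with the block are mostly left out. Some were larger, with 8 lower in the acute phase list, 8 in the patterning list and 4 in the NF-kB list. Promoter windows came from RefSeq (GRCm38.p6). Alternatives were the filter, the probe set rule, the scaling, the variance model, covariates, the replicate block, the arrays fitted, the promoter window and each array left out in turn.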

Additional observations from a re-analysis of the deposited data

Results flagged for a closer look

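In 12 genes the difference of WT Cre minus Null Cre departed from that of LSL-WT Cre minus LSL-WT Empty. The test was limma's, of the difference between the comparisons (adjusted p under 0.05). In the first comparison sex goes with p53, in the second it is balanced, and the 2 differ in strain. A difference in the response to p53 therefore cannot be told apart from sex or strain. With Xist as a covariate 0 genes passed. A positive value means a higher difference in WT Cre minus Null Cre. The 6 with the smallest p were Lrp11 (1.72), Cldn1 (2.44), Lyrm4, an iron-sulfur cluster protein (0.98), Tpd52l1 (1.04), Il1r1, the interleukin-1 receptor (-1.05), and Lce1f, of the cornified envelope (1.46). Both probe sets of Lce1f had a mean over the 23 arrays below the low-value level. The size of its difference therefore has no sure base. The remaining 6, chosen after their values were seen, were Ccnt2, a cyclin of transcription elongation (-1.38), Msx2, a homeobox factor (1.76), Ydjc (1.22), Ephx2, the soluble epoxide hydrolase (1.08), Moxd1 (1.67) and Mt1, a metallothionein (-0.93).

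Msx2 was higher with p53 in both, by 2.81 in WT Cre and 1.04 in LSL-WT Cre. Lyrm4 and Ccnt2 were called in opposite directions, Lyrm4 at 0.55 and -0.43 and Ccnt2 at -0.62 and 0.76. In the first comparison both calls were lost with Xist as a covariate or when only the compared arrays were fitted. That of Ccnt2 was also lost without Null Cre replicate 2 or 3 or WT Cre replicate 1, with differences of -0.45 to -0.58. Mt1 differed by 0.33 in the first, which did not pass (limma adjusted p 0.0771), and by 1.26 in the second. In the first its 2 probe sets lay at 0.33 and 1.16. With the mean of its probe sets it was called there, at 0.75 (limma adjusted p 0.0339). For Ccnt2, probe sets of the gene disagreed in sign, and its call in the first comparison was lost with their mean (-0.27). The number of genes that pass this test moved more than any other count with the settings. Groups of 3 arrays are too small for a search for single outlying arrays.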

How the results depend on the processing

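The count of 2325 genes was 3624 with all probe sets, 1250 with Xist as a covariate, 1125 when only the compared arrays were fitted and 767 at 2-fold or more, and 1576 to 2460 with 1 array left out. WT Cre and Null Cre share only the numbers 2 and 3, whose arrays correlated in their deviations at 0.371 and 0.134. Pairs with different numbers reached 0.255 (1 with 4) and 0.195 (3 with 4), so the numbers were not taken to pair these arrays, and with the replicate block the count was 4129. For LSL-WT cells the count of 1732 was 3937 with the block, 770 when only the compared arrays were fitted and 967 to 1598 with 1 array left out. The 12 genes of the difference became 1 with the stricter filter, 1 with trended and robust variance, 1 with X and Y genes kept, 3 with all probe sets, 21 with array weights, 234 with the replicate block, 0 with Xist as a covariate and 0 when only the compared arrays were fitted. With 1 array left out that number was 0 to 46, the highest without WT Cre replicate 3. Where limma passed 0 genes, 1150 had passed an unadjusted p of 0.05 in the full set of arrays. The CHR was in 1139 rather than 1938 windows when they began 150 bases before the start. Of 180 named genes past the threshold, 142 passed without each of the 6 arrays and 123 in all settings run. Phgdh turned from 0.48 to -0.0858 with the mean of its probe sets. The cause of these shifts was not tested, except that fewer arrays or more probe sets change what is tested. Without detection calls, differences that rest on a group near log2 4.79 have no sure size.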

Other observations

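These lists stand beside the 8.72% of all genes tested that were higher in WT Cre and the 7.02% that were lower, and a count near those shares is not a result about a list. Of 21 contractile and YAP target genes, 3 were higher in WT Cre and 0 lower, with a median of 0.28. Ccn2, a matricellular target of YAP, read 12.82, 12.66 and 13.19 against 11.10, 11.32 and 11.46, 3.03-fold higher with no overlap (1.60 ± 0.42, limma adjusted p 0.0129). The count was 5 without WT Cre replicate 2. Of 30 genes of TGF-beta, BMP, WNT and Notch signalling, 3 were higher and 0 lower, with 1 lower without Null Cre replicate 3 and 2 without WT Cre replicate 3. Inhbb, the activin beta B subunit, rose by 2.15 ± 0.44 and Inhba by 0.79 ± 0.18. Of 29 Hox genes 0 passed in either direction in limma and 1 had an unadjusted p under 0.05, while 1 passed without Null Cre replicate 2 or WT Cre replicate 2. Of 21 feedback genes of Ras and MAPK signalling 0 passed in limma, with 2 higher and 1 lower at an unadjusted p under 0.05 and differences from -0.61 to 0.80, and 1 passed without WT Cre replicate 1 or 3. With the replicate block, 4 of these were higher and 2 lower.

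Among 22 imprinted genes, Plagl1, a zinc finger factor, rose by 1.33 ± 0.26, with its 4 probe sets above the low-value level at -0.07 to 1.33, and Asb4 by 1.06 ± 0.22, and 3 were lower. Of 40 patterning factors, Msx2 was higher, at 10.37, 9.84 and 9.25 against 6.87, 7.09 and 7.08, with no overlap, and 3 were lower. Both counts of 3 were 1 without Null Cre replicate 2, and that of the patterning factors also without WT Cre replicate 1. Of 30 secreted proteases, growth factors and their binding proteins linked to senescence, 1 was higher and 4 were lower. Igf1 fell by 1.34 ± 0.19 on the log2 scale, and Timp2, an inhibitor of metalloproteases, rose by 0.72 ± 0.10. The number lower was 2 without Null Cre replicate 2 or WT Cre replicate 1, and the number higher was 2 without Null Cre replicate 2 or WT Cre replicate 2.

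Of 19 genes of glycolysis and the pentose phosphate pathway, 3 were lower and 0 higher, Aldoc by -1.43 ± 0.30, Pdk1 by -1.41 ± 0.26 and Tpi1 by -0.55 ± 0.10. Of 15 NF-kB targets Icam1 was higher, by 1.93 ± 0.40, and 2 were lower, Bcl3 by -1.83 ± 0.33 and Birc3 by -0.80 ± 0.24. The call of Birc3 was lost without Null Cre replicate 2 or 4 or WT Cre replicate 1 or 2, with differences of -0.67 to -0.78, and 2 were higher without Null Cre replicate 2 or WT Cre replicate 3. Of 8 macrophage markers tested 1 was higher, and of 6 endothelial and 6 skeletal muscle markers 1 each was higher. The endothelial one was Tek, at 4.57, 5.73 and 5.25 against 4.46, 4.43 and 4.29. All Null Cre arrays and WT Cre replicate 1 lay below log2 4.79 for Tek, so its difference has no sure base. Without 1 array the macrophage gene Cd68 (Null Cre replicate 4 or WT Cre replicate 1 or 2, 0.88 to 1.20) and the endothelial gene Tek (Null Cre replicate 4 or WT Cre replicate 2, 0.74 and 0.51) lost their calls, which leaves 0 in each list, and 2 muscle markers passed without WT Cre replicate 3. Acta1, a skeletal actin also made by fibroblasts with contractile features, read 12.20, 11.46 and 10.90 against 9.69, 9.39 and 9.07, while Myog and Myod1, which define muscle, stayed at or below 5.86 in all 6 arrays. Ptprc, the pan-leukocyte marker, lay below log2 4.79 in all 6 arrays.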
